A study of Saccharomyces cerevisiae with 2 samples.

Results

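The galactose regulon of budding yeast was examined at 8 genes, namely GAL1, GAL2, GAL3, GAL4, GAL7, GAL10, GAL80 and GCY1, out of 6002 protein-coding genes on the nuclear chromosomes. The rule lists them by name and uses no measured value, although they were proposed with earlier results of these data known. For each gene, the bases covered by accessible intervals were counted in the 500 bp before its coding start and in its coding body. The data are DNase-seq, in which DNase I cuts open chromatin in nuclei and a caller reports the readily cut stretches as hotspots. One library came from wild-type (WT) cells and 1 from cells with the temperature-sensitive Hsp90 allele G170D, both in the W303 background. Each culture grew in YPD, a rich glucose medium, at 30 °C, from optical density 0.25 up to 0.65, and then spent 15 min in medium at 37 °C, which the series' design describes as non-permissive for the mutant. The labels name no galactose, and no library from before the shift was analysed here, so a difference already present at 30 °C cannot be told apart from one that arose at 37 °C. The labels also do not say how the allele is carried or how many cultures or clones lie behind a library.

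Yeast cells that meet galactose import it through Gal2 and convert it to glucose phosphate by the Leloir pathway, whose enzymes are encoded by GAL10, GAL1 and GAL7. The activator Gal4 binds upstream activating sequences before these genes, Gal80 masks its activation domain, and Gal3 relieves that block when galactose is present. In glucose the genes are held off, partly by the repressor Mig1 with the corepressor Tup1 and Cyc8, and the GAL1 and GAL10 genes share 1 upstream region between them. Positions are on assembly R64, which is sacCer3, and count from 1.

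With 1 library per strain there was no replicate check, and every difference given here is a difference between 2 hotspot lists. The WT list held 7050 hotspots over 3.83 Mb and the G170D list 5988 over 3.33 Mb, with mean widths of 543 and 556 bp. Read depth was unknown, so a lower coverage in the shorter G170D list cannot be told apart from shallower sequencing or lighter digestion.

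Upstream of the galactose genes, hotspots were present in both strains at nearly all members, and more members had wider coverage in G170D than in WT. A hotspot lay in the upstream window of 7 of 8 members in WT, against 82% of all coding genes, and of the same 7 in G170D, against 76%. The exception was GAL80, with 0 bp in either strain, a state shared by 14.4% of coding genes. Covered length was at least 100 bp longer in G170D at 4 of 8 members (GAL2, GAL3, GAL4 and GCY1), compared with 9.61% of coding genes. It was at least 100 bp shorter at 1 member (GAL7), compared with 19.6% of coding genes. A window with less than 100 bp in WT cannot be shorter by that much, as at GAL80 (0 bp) and GCY1 (60 bp). The 19.6% is over all coding genes whatever their WT coverage. A window already covered over more than 400 bp in WT cannot be longer by 100 bp. Room for such a difference was left at 6 of 8 members, all but GAL1 and GAL10, and at 3556 of 6002 coding genes, of which 16.2% were longer by that much. The median difference, G170D minus WT, was 51.5 bp over the 8 members and 0 bp over all coding genes, whose mean difference was -24.9 bp. GAL1 and GAL10 share their upstream hotspot, so the 8 windows lie in 7 separate regions. The count of longer windows depends on the window. Ended at the neighbouring coding body, it was 3 of 8 (GAL2, GAL3 and GCY1), against 7.25% of coding genes. With 1000 bp it was again 4 of 8, but of the 4 genes named here only GAL2 and GAL4 were among them, beside GAL1 and GAL80. With 250 bp in place of 500 bp it was 0 of 8, and the differences within that nearer stretch were 99 bp at GAL2, 69 bp at GAL3, 12 bp at GAL4 and -60 bp at GCY1. That 0 was partly fixed beforehand, since WT already covered 250 bp at GAL1 and GAL10, 238 bp at GAL4 and 181 bp at GAL3. These genes had no room to be longer by 100 bp, and GAL3 and GAL4 were covered over all 250 bp in G170D.

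**Figure D1:**
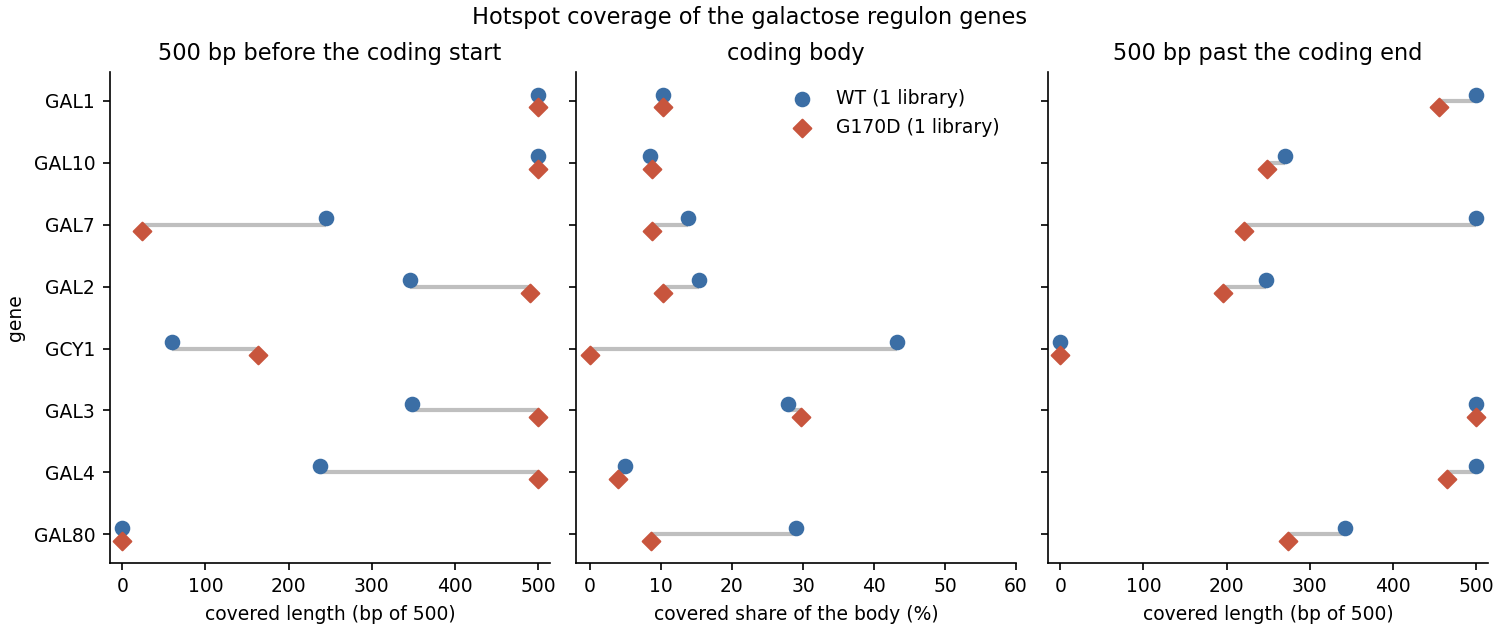
Covered length in bp in the 500 bp before the coding start (left), covered share of the coding body in percent (middle) and covered length in the 500 bp past the coding end (right) for each gene, with 1 circle for the WT library and 1 diamond for the G170D library. GAL2, GAL3, GAL4 and GCY1 lie higher in G170D upstream, GAL7 lies lower, and GCY1 and GAL80 lie lower in the coding body.

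The Leloir enzyme genes stand side by side on chromosome II, and their shared promoter was open in both strains. GAL1, the galactokinase gene (YBR020W, 279021 to 280607, plus strand), and GAL10, the gene of the mutarotase and epimerase (YBR019C, 276253 to 278352, minus strand), are divided by 668 bp that were covered throughout in WT and in G170D. Both upstream windows were therefore at 500 bp in both strains, as were 20.1% of all coding gene windows. A single hotspot held this region, 278293 to 279109 (817 bp) in WT and 278172 to 279183 (1012 bp) in G170D. The G170D hotspot contained the WT one and reached 74 bp farther into GAL1 and 121 bp farther into GAL10. Its score, the authors' own number for each hotspot, was 9.13 in WT, at percentile 60.3 of that list, and 48.3 in G170D, at percentile 96.1 of that list. Scores were read only within a list, and ranks in lists of different length cannot establish a change between strains.

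GAL7, the gene of the uridylyltransferase (YBR018C, 274427 to 275527, minus strand), had 245 bp of its upstream window covered in WT and 24 bp in G170D. The difference was -221 bp, and 476 coding genes had a difference at or below this one. The space of 725 bp between GAL7 and GAL10 held 1 hotspot in each strain, but at different places. In WT it ran from 275783 to 276052 (270 bp) and in G170D from 276004 to 276256 (253 bp), with 49 bp in common. Of the whole space, 270 bp were covered in WT and 249 in G170D, and the G170D hotspot lay 204 bp farther from GAL7 on its distal side. Both hotspots were low within their own lists, at score percentiles 13.9 and 26.5. With the 2 lists held to equal length the WT hotspot dropped out, and GAL7 then stood at 0 bp in WT against 24 bp in G170D.

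Past the coding end of GAL7, WT had 500 of 500 bp covered and G170D 221 bp. A WT hotspot of 901 bp (273678 to 274578) was met there by 2 narrower ones in G170D, of 266 and 183 bp. Past the coding end of GAL1 the values were 500 bp in WT against 456 bp in G170D, under hotspots of 939 and 792 bp. Across the stretch from GAL7 to GAL1 with 500 bp on either side (7181 bp), WT hotspots covered 2431 bp (33.9%) and G170D hotspots 2039 bp (28.4%), of which 1640 bp were common. This stretch was thus less covered in G170D, as was the whole genome, with 3.83 Mb in the WT list and 3.33 Mb in the G170D list. Most of the difference lay in the 500 bp past GAL7 (-279 bp) and past GAL1 (-44 bp). The central promoter was fully covered in both strains.

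**Figure D2:**
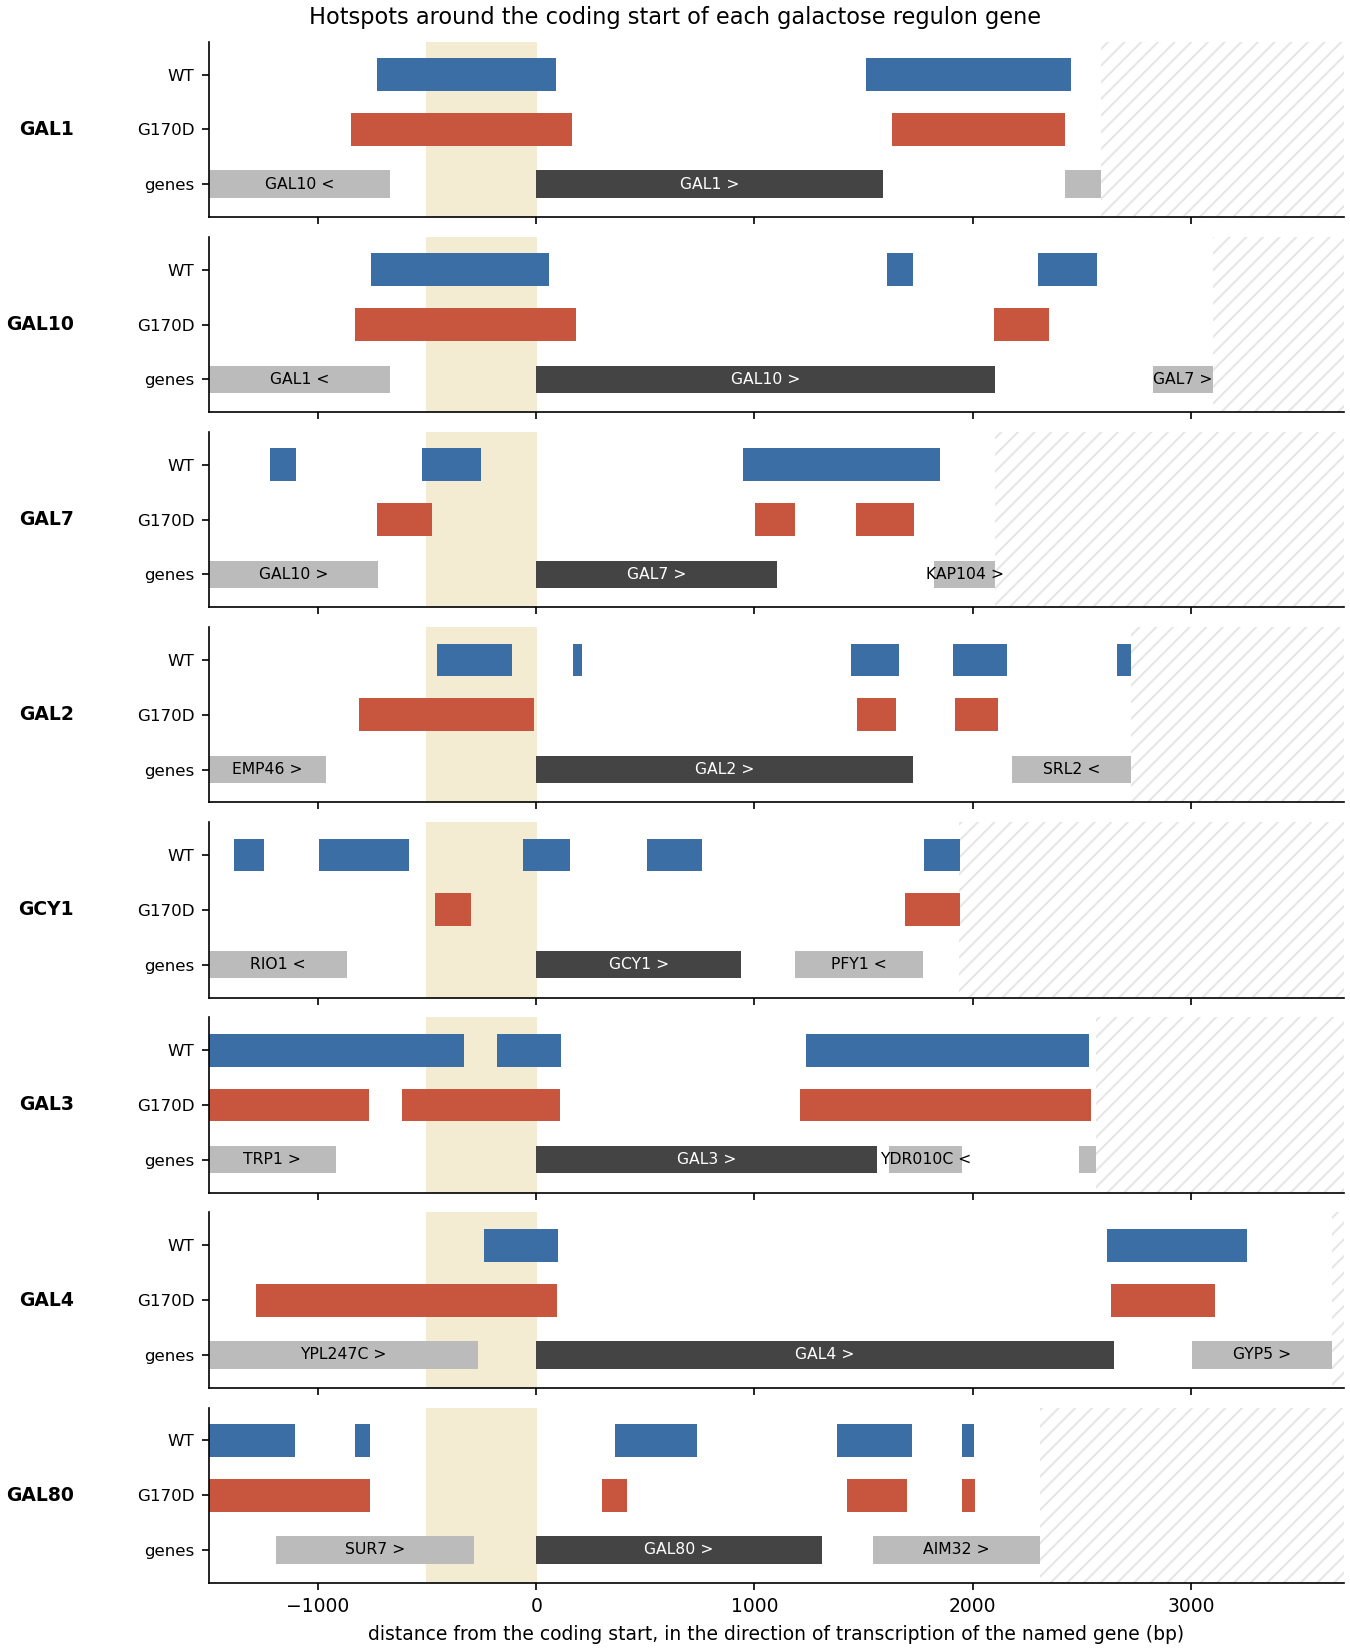
Hotspots of WT (upper bars) and G170D (middle bars) and coding bodies (lower bars, the named gene dark, with > for the same and < for the opposite direction of transcription), against the distance from the coding start in bp. The shaded band is the 500 bp window, the hatched part lies more than 1000 bp past the coding end and is not drawn, and the single hotspot between GAL10 and GAL1 appears in both of their rows.

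Outside the cluster, GAL2, which encodes the galactose permease (YLR081W, chromosome XII, 290212 to 291936, plus strand), had 346 bp covered upstream in WT and 490 bp in G170D. The difference of 144 bp was reached or passed by 456 coding genes. Its upstream hotspot was 346 bp wide in WT (289757 to 290102) and 802 bp in G170D (289400 to 290201). The G170D hotspot contained the WT one, and it reached 357 bp farther from the gene and 99 bp nearer to it. In the 961 bp between EMP46 and GAL2, 346 bp were covered in WT and 802 bp in G170D, and none of the WT bases were lost. This gain lay wholly between genes, and it was the same with lists of equal length and with only the hotspots at or above the median score of each list.

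GCY1 encodes a glycerol dehydrogenase of the aldo-keto reductase family and is known as a target of Gal4 (YOR120W, chromosome XV, 551114 to 552052, plus strand). Its upstream window had 60 bp covered in WT and 163 bp in G170D, with 0 bp in common. The WT hotspot (551054 to 551268, 215 bp) straddled the coding start, and the G170D hotspot (550650 to 550812, 163 bp) ended 301 bp before it. Neither met a hotspot of the other list, and their scores stood at percentiles 36.1 and 36.5, so that both dropped out when only hotspots at or above the median score of each list were kept. The direction at GCY1 rests on the window: a 250 bp window gave 60 bp in WT against 0 bp in G170D, and a 1000 bp window gave 472 and 163 bp. In the 867 bp between RIO1 and GCY1, 342 bp were covered in WT and 163 bp in G170D, so the longer coverage of the 500 bp window did not extend to the whole intergenic region.

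Of the regulators, GAL3, the gene of the galactose sensor (YDR009W, chromosome IV, 463434 to 464996, plus strand), had 348 bp covered upstream in WT and 500 bp in G170D. The WT coverage came from 2 hotspots, 1 that straddled the coding start (463253 to 463545, 293 bp) and 1 that reached in from the neighbouring gene TRP1 (461232 to 463100, 1869 bp). In G170D a single hotspot of 724 bp (462819 to 463542) covered the gap of the WT list. In the 917 bp between TRP1 and GAL3 the covered length was 765 bp in WT against 764 bp in G170D, so the open bases lay nearer to GAL3 in G170D and were not more numerous. A 1000 bp window gave 848 bp in WT against 847 bp in G170D. TRP1, a tryptophan synthesis gene, is also a common selection marker, and its coding body was covered at 100% in both strains. A further copy of it in either strain, which the labels neither state nor deny, could add reads to this window, and its part in the result was not tested. Without the hotspots over TRP1, an alternative chosen after seeing the data, GAL3 had 181 bp in WT against 500 bp in G170D.

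GAL4, the gene of the activator itself (YPL248C, chromosome XVI, 79711 to 82356, minus strand), showed the longest gain, from 238 bp in WT to 500 bp in G170D. Its difference of 262 bp was reached or passed by 214 coding genes. The upstream hotspot measured 339 bp in WT (82256 to 82594) and 1378 bp in G170D (82263 to 83640), and the edges within GAL4 lay 7 bp apart. The far edge lay 1046 bp farther out in G170D, over the neighbouring gene YPL247C, whose coding body was at 0% in WT and 64.6% in G170D. Only 268 bp separate GAL4 from that gene. When the window was ended at the neighbouring coding body, GAL4 had 238 bp in WT against 268 bp in G170D, a gain of 30 bp, so most of the added length lay in YPL247C.

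GAL80, which encodes the inhibitor of Gal4 (YML051W, chromosome XIII, 171594 to 172901, plus strand), had no hotspot in its 500 bp window in either list. The 283 bp that separate it from SUR7 were at 0 bp in both strains. A 1000 bp window reached into hotspots over the SUR7 coding body and held 67 bp in WT against 240 bp in G170D. With the depth unknown, an absent hotspot says that the caller reported none and not that the region was closed.

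**Figure D3:**
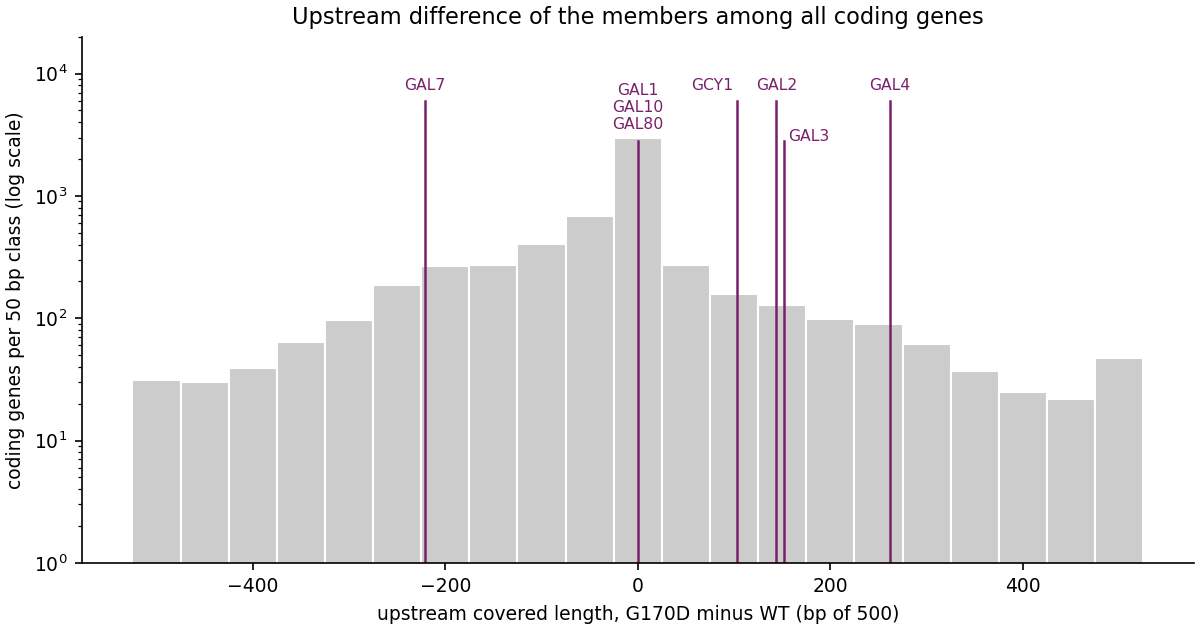
Number of coding genes per 50 bp class (log scale) by the difference in upstream covered length, G170D minus WT, for 6002 genes, with a line for each of the 8 galactose regulon genes. GAL7 lies at -221 bp, 3 genes lie at 0, and GCY1, GAL2, GAL3 and GAL4 lie between 103 and 262 bp.

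Within the coding bodies, the highest coverage of a member was 43.2% in WT (GCY1) and 29.7% in G170D (GAL3). Differences, G170D minus WT, were -43.2 percentage points at GCY1, -20.4 at GAL80, -5.10 at GAL2, -5.00 at GAL7 and -0.98 at GAL4, and GAL1, GAL3 and GAL10 were equal or higher in G170D. A hotspot touched the body of 8 of 8 members in WT, against 80.2% of coding genes, and of 7 of 8 in G170D, against 74.6%. Median coverage of the body was 14.6% in WT and 8.81% in G170D over the members, and 19.7% and 13.6% over all coding genes. Coverage was lower in G170D at 5 of 8 members, compared with 55.7% of coding genes, and the median difference was -2.99 percentage points against -1.41 over all coding genes. A loss of at least 20 percentage points was seen at 2 of 8 members, against 15.3% of coding genes, and a gain of that size at 0 of 8, against 9.43%. These shares are near those of all coding genes, in view of the small number of members.

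Both losses were at genes with an internal WT hotspot, which GAL2 and GAL10 also had without a loss of that size. GCY1 had 43.2% of its body covered in WT and 0% in G170D, and 253 coding genes had a difference at or below it. Its WT coverage came from the hotspot at the coding start and a second of 251 bp within the body, and neither was in the G170D list. GAL80 had 29.0% of its body covered in WT and 8.56% in G170D. The WT hotspot inside GAL80 (171953 to 172331) was 379 bp wide and the G170D one (171897 to 172008) 112 bp, with 56 bp in common. Both GAL80 hotspots scored low, at percentiles 20.2 and 9.72 of their lists.

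The other bodies were covered towards their ends. When each body was divided into 3 equal parts, the middle part was free of hotspots at 6 of 8 members in WT, all but GCY1 and GAL80, and at 8 of 8 in G170D, against 55.2% and 62.1% of coding genes. In GAL3, 28.0% of the body (437 bp) was covered in WT and 29.7% (464 bp) in G170D, mostly in the last of the 3 parts (62.4% and 68.1%). The long hotspot there, 1293 bp in WT against 1334 bp in G170D, ran on over the next gene. In GAL1 the covered length was 163 bp in both strains, but at different places. In WT 89 bp lay at the start and 74 bp at the end of the body, whereas in G170D all 163 bp lay at the start. GAL7 had 13.8% of its body covered in WT and 8.81% in G170D, all of it in the last of the 3 parts. GAL10 had 8.48% and 8.81%. Its first part was covered at 8.57% in WT and 25.9% in G170D, and a WT hotspot of 118 bp farther in (276628 to 276745) had no counterpart. GAL4 had the lowest WT share of the members, at 4.95%, and 3.97% in G170D. GAL2 had 15.4% and 10.3%, and a WT hotspot of 44 bp near its start was not in the G170D list.

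**Figure D4:**
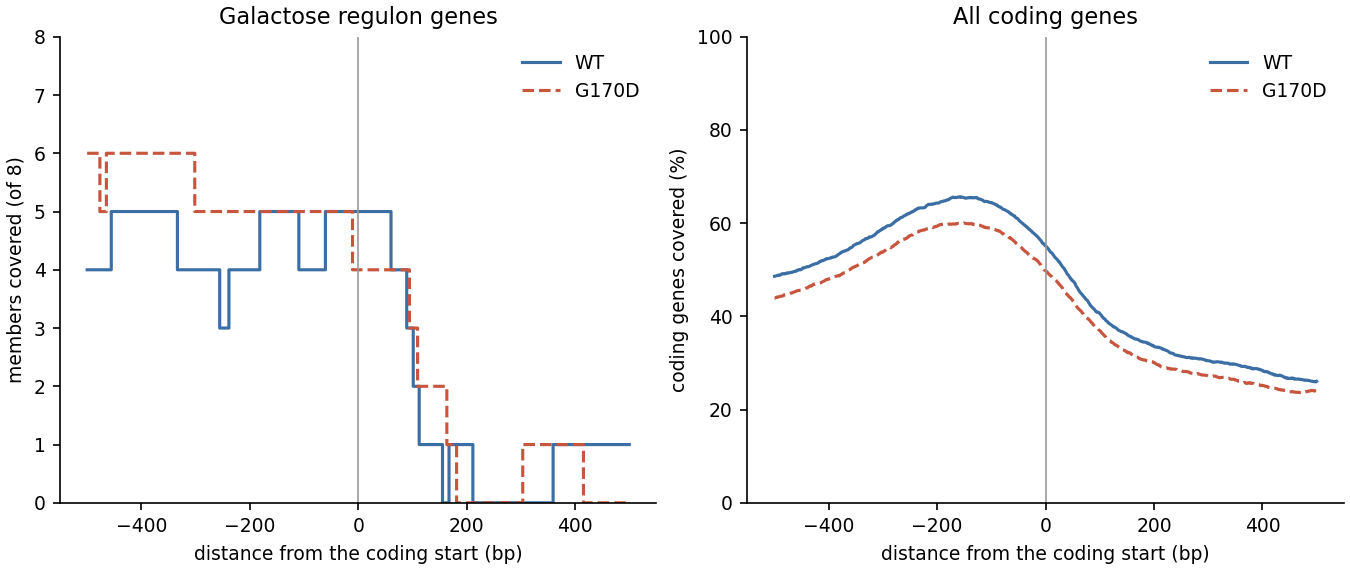
Number of the 8 galactose regulon genes covered by a hotspot at each base (left) and percent of all coding genes covered (right), against the distance from the coding start in bp, for WT (solid) and G170D (dashed). At 300 bp before the start 4 members were covered in WT and 5 in G170D, while 58.9% of all coding genes were covered in WT and 53.8% in G170D.

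Read at single positions, the members were covered more often before the coding start and at its first bases than farther into the body. Coverage of all coding genes also fell into the body, but less far. From 500 to 200 bp before the start it rose in G170D from 44.0% to 59.4%, whereas the count of members there went from 6 to 5. At 500 bp before the start, 4 members were covered in WT and 6 in G170D, where all coding genes gave 48.6% and 44.0%. At 100 bp before it, 4 members were covered in WT and 5 in G170D, against 64.4% and 58.8% of coding genes. At the first coding base 5 members were covered in WT and 4 in G170D, against 55.0% and 49.8%. At 300 bp into the body 0 members were covered in either strain, against 30.5% and 27.2%.

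In the 500 bp past the coding end, which the choice of windows did not use, coverage was shorter in G170D at 6 of 8 members, equal at 2 and longer at 0. Over all coding genes 44.4% were shorter. Both counts take a difference of any size, and only GAL7, at -279 bp, was shorter by 100 bp or more. A window at 0 bp in WT cannot be shorter, and the 44.4% is over all coding genes whatever their WT coverage. The median was 421.5 bp in WT against 261.5 bp in G170D over the members, and 208 and 155 bp over all coding genes. GAL3 was at 500 bp in both strains and GCY1 at 0 bp in both. GAL4 had 500 and 465 bp, GAL80 343 and 274 bp, GAL2 248 and 196 bp, and GAL10 270 and 249 bp. The last of these windows overlaps the upstream window of GAL7, so the values for GAL10 and GAL7 share bases. The windows past GAL1, GAL4, GAL7 and GAL80 likewise overlap the upstream windows of their neighbours FUR4, GYP5, KAP104 and AIM32.

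In all, 16 WT hotspots touched an upstream window or a coding body of a member, and 12 of them met one of the G170D list. In G170D 11 hotspots did so, of which 10 met one of the WT list. The share of hotspots that meet the other list was not counted over the whole lists, so these counts do not set the members apart. The exceptions in WT were the hotspots within GAL10 and GAL2 and both at GCY1, and the exception in G170D was the one upstream of GCY1. Upstream hotspots had a median width of 339 bp over 7 in WT and 763 bp over 6 in G170D. The medians of the whole lists, 329 and 326 bp, are over all hotspots and not only those that touch an upstream window. A wide hotspot touches a window more readily, so these medians are not a like comparison. The widths in G170D also restate the longer coverage given above.

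Other genes of the pathway were counted in the same way, beside the 9.61% of coding genes that were longer by 100 bp or more upstream and the 19.6% that were shorter. Of 3 further genes bound by Gal4, 0 were longer and 1 was shorter by as much, and 2 had room to be longer. FUR4, the uracil permease gene next to GAL1, was at 500 bp in both strains, and MTH1, which encodes a glucose signalling protein, had 259 bp in WT against 243 bp in G170D. PCL10, a cyclin gene, had 173 bp in WT against 0 bp in G170D. Of 4 genes whose products work beside the Leloir pathway or are named with it, 0 passed 100 bp in either direction, and only LAP3 had room to be longer by as much. With so few genes these counts set the lists apart from other genes in neither direction. The phosphoglucomutase genes PGM1 and PGM2 had 433 and 459 bp, and 500 and 500 bp, in WT and G170D respectively. UGP1, which encodes the enzyme that makes UDP-glucose, was at 500 bp in both, and LAP3, a protease gene also called GAL6, had 147 and 188 bp.

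Among 15 genes of the glucose repression machinery, 0 were longer by 100 bp or more upstream in G170D, where 7 had room for it, and 3 were shorter by as much, a share of 20.0% against 19.6% of coding genes. The repressor genes MIG2 (213 bp in WT against 0 bp in G170D) and NRG2 (500 and 307 bp) and the Snf1 kinase subunit gene SIP1 (349 and 200 bp) were these. MIG1, TUP1 and CYC8, whose products repress the galactose genes in glucose and which were picked after their values were seen, were at 500 bp in both strains. Of 10 other genes that glucose represses, 3 were longer by 100 bp or more and 0 shorter by as much. They were the gluconeogenic genes FBP1 (287 bp in WT against 500 bp in G170D) and PCK1 (266 and 500 bp) and the lactate permease gene JEN1 (123 and 295 bp). Of these 10 genes, 6 had room to be longer by as much. The share longer was 9.61% over all coding genes and 16.2% over those with such room.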

How the data were processed

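DNase-seq hotspots were taken from 1 WT and 1 G170D library, assigned by source name. Per the labels' protocols, fragments from lightly digested nuclei were size-selected and read over 101 cycles. Tools named in the submitters' processing notes are Bowtie 1.0.0 and FastQC 0.10.1, with sacCer3 as build. No source used here gives the hotspot caller, its threshold or what its score measures. The deposited lists give chromosome, start, end and a score for each hotspot, called per sample, and the authors' score was used only to rank hotspots within a list.

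Coordinates were set against RefSeq genes of R64, with strand taken from W or C in the systematic name. A window was called as holding a hotspot from 1 bp, and differences of 100 bp upstream or 20 percentage points of the body were counted. All 8 members were named. The neighbours, the 4 wider lists and the most similar genes followed rules written down earlier, and the members and lists were chosen with earlier results of these data known. No difference between strains was tested, since each had 1 library. Coverage counting was tested on simulated hotspot lists over 6002 genes, and 100% of 36012 values equalled a count base by base. No sequences were used here. Alternatives covered the window, score threshold, list length, merging and overlap. Computation used Python 3.11.15, numpy 2.4.6 and pandas 2.3.3.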

Additional observations from a re-analysis of the deposited data

How the results depend on the processing

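No paired analysis was possible because each strain had 1 library and no result comes from a test. Over 7 planned and 2 added alternatives, 36 of 48 recomputed counts and medians stayed equal to or within 1.5 times their reported value. This number says little about stability, because some alternatives left the members as they were. Merging hotspots across gaps of up to 150 bp changed no member value, and leaving out the hotspots over TRP1 changed only GAL3. The count of body gains of 20 points or more was 0 throughout. A count does not say which genes: with a 1000 bp window 4 members were again longer by 100 bp or more, but only 2 of them were the reported ones, and the 1 shorter member was GCY1 and not GAL7. The median upstream difference, 10.3 percentage points of the window as reported, was 0 with a 250 bp window and with only hotspots at or above the median score of their list (higher-scoring hotspots), 5.60 with the window ended at the neighbouring coding body, and 20.6 with GAL1 and GAL10 counted once. The median body difference of -2.99 points was 0 with the higher-scoring hotspots, -1.77 with equal list lengths and -5.00 with GAL1 and GAL10 counted once. Members at least 100 bp longer upstream in G170D numbered 0 with a 250 bp window, where GAL1, GAL3, GAL4 and GAL10 had no room for such a gain. Members at least 100 bp shorter numbered 0 with a 250 bp window, with the higher-scoring hotspots and with equal list lengths. Body losses of 20 points or more numbered 0 with the higher-scoring hotspots. Among single genes, 4 of 80 values changed sign: GAL3 (-0.1 points with 1000 bp), GAL7 (4.8 with equal list lengths) and GCY1 (-24 with 250 bp and -30.9 with 1000 bp). A reported value of 0, as upstream of GAL1, GAL10 and GAL80 and in the GAL1 body, could not change sign. A further 21 values moved beyond a margin set around the reported value. Among them, GAL80 upstream went from 0 to 17.3 points with 1000 bp, and the GCY1 body from -43.2 to 0 with the higher-scoring hotspots. The cause of these changes was not tested. Unknown depth limits every absence of a hotspot.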

Other observations

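The genes next to the galactose genes were examined with the same windows. Of 12 neighbouring coding genes that are not themselves members, 0 had upstream coverage at least 100 bp longer in G170D and 4 had it at least 100 bp shorter, beside 9.61% and 19.6% of all coding genes. Only 4 of the 12 had room in the 500 bp window to be longer by 100 bp, so the 0 was fixed for the other 8. At KAP104, a nuclear import receptor gene past the end of GAL7, 500 bp were covered in WT against 266 bp in G170D. EMP46, before GAL2, had 500 bp in WT against 231 bp in G170D, and SRL2, past GAL2, had 500 and 263 bp. RIO1, a kinase gene divergent from GCY1, had 282 bp in WT against 97 bp in G170D. Its upstream window overlaps that of GCY1, and the 97 bp belong to the G170D hotspot upstream of GCY1 (550650 to 550812). The values for RIO1 and GCY1 thus share bases. The body of SUR7, which encodes a plasma membrane protein and lies before GAL80, was covered at 16.8% in WT and 47.5% in G170D. The bodies of YPL247C, PFY1 and FUR4 were also more covered in G170D. Those of RIO1 (58.3% in WT against 29.9% in G170D), SRL2 (59.5% and 31.5%), GYP5, EMP46, AIM32 and KAP104 were less covered. TRP1 and YDR010C were equal.

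For each member, the coding gene most like it was found by the share of equal base states, covered or not, over 1000 positions around the coding start in both lists (2000 states). ACS1, an acetyl-CoA synthetase gene, was closest to GAL10 with 99.35% of states equal. Both have upstream windows covered throughout in both strains, as do 20.1% of coding genes, so a high share is readily reached there. SIR4, a silencing gene, was closest to GAL7 (98.8%), MRPL15 to GAL1 (98.55%), SYN8 to GAL4 (97.15%), TIP20 to GAL3 (94.3%), AFI1 to GAL80 (94.25%) and PDR5, a drug pump gene, to GAL2 (94.0%). GCY1 had the least similar best match, ISM1 at 89.55%. The median over all genes compared ran from 46.35% for GAL80 to 62.6% for GAL1.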
